A study of Mus musculus with 9 samples.

Results

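The interferon-induced GTPases described here are 9 genes found by symbol in the feature table: the immunity-related GTPases Igtp, Irgm1, Irgm2, Iigp1 and Ifi47 and the guanylate-binding proteins Gbp2, Gbp3, Gbp5 and Gbp7. All 9 of 9 symbols were present, each once, among the 32286 features. They were measured by 5′ single-cell RNA sequencing of whole-tumour suspensions from 168FARN, a mouse mammary tumour cell line, grown in the mammary fat pads of BALB/c mice. There were 9 libraries, 3 from WT tumours, 3 from Kmt2c KO tumours and 3 from Kmt2d KO tumours. Kmt2c and Kmt2d encode histone H3 lysine 4 methyltransferases. The comparison asks how far a tumour-cell genotype is accompanied by an interferon response in the tumour cells and in the host cells around them.

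All 3 groups carried the H2B-mCherry reporter, counted as the feature H2BMc, and all were given as a mammary fat pad injection. The hosts were female, immunocompetent BALB/c mice bought at 5 to 6 weeks of age, so the host cells are WT in every group. Per the study's methods, the knockouts came from transfecting a pool of guide RNAs against exon 1 with Cas9 and sorting, and the edited cells were not described as single clones. Transcript counts do not check such edits. Kmt2c stood at 42.0 to 57.5 CPM (counts scaled to a common total of UMIs per library and class) in the tumour cells of Kmt2c KO libraries and 48.0 to 48.9 CPM in WT, and Kmt2d at 24.4 to 31.6 CPM in Kmt2d KO and 15.2 to 21.4 CPM in WT. A library's group was read from the genotype letter that the authors' aggregation table gives it, and libraries are numbered 1 to 3 within a group in file order only.

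Interferon gamma, released mainly by T cells and natural killer cells, binds its receptor on almost any nucleated cell and acts on genes through GAS elements in their promoters. Type I interferon acts mainly through ISRE elements, which IRF1, itself induced by interferon gamma, also binds. Both GTPase families are among the strongest targets of interferon gamma in mouse cells. Their proteins assemble on the vacuoles of intracellular parasites and bacteria and help to break them open, with Irgm1, Irgm2 and Igtp acting as regulators that keep effectors such as Iigp1 off the cell's own membranes. Gbp2, Gbp3, Gbp5 and Gbp7 work together on those vacuoles, and Gbp5 is also known to promote inflammasome assembly.

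Apart from Iigp1, the 4 Gbp genes lie together on chromosome 3 and the other 4 genes at 2 places on chromosome 11. In the GRCm38.p6 RefSeq table, Gbp5 (ENSMUSG00000105504) is at chr3:142496934-142522344, Gbp7 (ENSMUSG00000040253) at chr3:142530336-142550151, Gbp3 (ENSMUSG00000028268) at chr3:142560016-142573213 and Gbp2 (ENSMUSG00000028270) at chr3:142620663-142638008. On chromosome 11, Igtp (ENSMUSG00000078853) is at chr11:58199556-58207592 and Irgm2 (ENSMUSG00000069874) at chr11:58214977-58222783, while Irgm1 (ENSMUSG00000046879) is at chr11:48865245-48871420 and Ifi47 (ENSMUSG00000078920) at chr11:49076587-49096987. Iigp1 is ENSMUSG00000054072. Members of both families share sequence, so reads from close paralogues can be lost or split, and single-gene levels carry that uncertainty.

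RefSeq promoter windows of 300 bases, 250 before and 50 after the start, were matched by symbol for 8 of the 9 genes, with 2 windows for Gbp3. The GAS letters TTCNNNGAA were found in 4 of these 9 windows, against 8.30% of all 32851 windows, and the ISRE letters GAAANNGAAA, searched on both strands, in 7 of 9, against 3.44%. Both motifs stood together in 4 of 9 windows, against 0.454% of all windows. The following stretches show the matches in capitals, 5′ to 3′ on the gene's strand, to set side by side the starts of genes whose levels are described below.
Igtp, chr11:58199496-58199546, plus strand: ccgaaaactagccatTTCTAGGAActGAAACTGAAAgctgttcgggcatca
Irgm2, chr11:58214887-58214937, plus strand: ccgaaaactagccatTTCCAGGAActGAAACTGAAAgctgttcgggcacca
Irgm1, chr11:48871420-48871465, minus strand: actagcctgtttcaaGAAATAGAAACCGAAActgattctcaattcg
Gbp7, chr3:142530215-142530307, plus strand: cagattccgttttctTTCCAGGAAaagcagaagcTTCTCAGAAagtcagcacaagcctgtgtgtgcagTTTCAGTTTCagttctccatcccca
Gbp2, chr3:142620589-142620628, plus strand: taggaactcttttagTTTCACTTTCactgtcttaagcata
In Igtp and Irgm2, which are neighbours, a GAS match is followed after 2 bases by an ISRE match, and the 51 bases shown differ at 2 positions. Irgm1 held 2 overlapping ISRE matches and no GAS match. The other windows with matches were the first window of Gbp3, with 2 overlapping ISRE matches, and that of Gbp5, with 2 GAS matches and 1 ISRE match, and no GAS match overlapped an ISRE match in any of the 9 windows. Ifi47 and the second Gbp3 window had neither set of letters, which says only that they are not in those 300 bases.

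**Figure D1:**
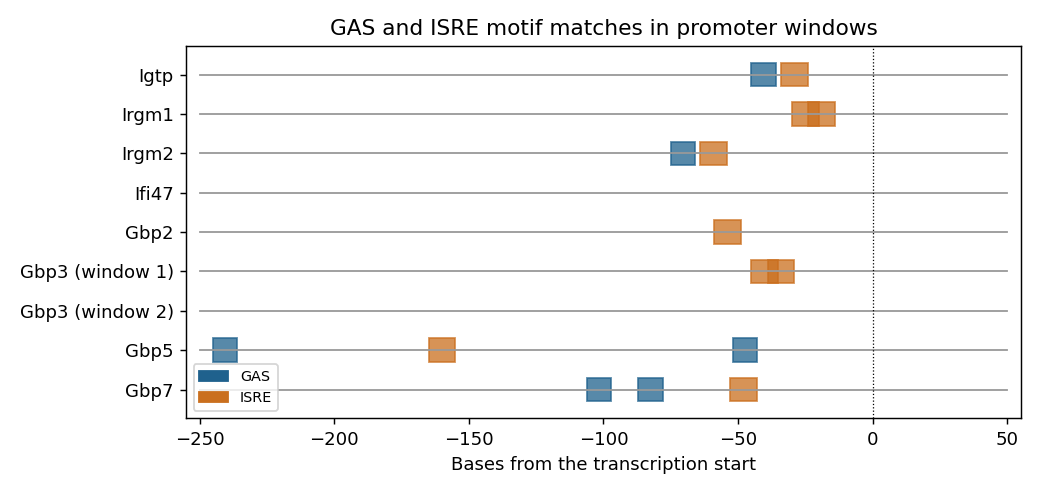
Matches to the GAS and ISRE letters in the RefSeq promoter windows of 8 of the GTPase genes, plotted as distance in bases from the transcription start (x axis), 1 grey line per window. GAS (blue) and ISRE (orange) matches begin no further upstream than position −106, except for 2 of the 3 matches of Gbp5.

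Cells were put into 4 classes by marker genes. Tumour cells held at least 1 UMI of H2BMc and failed every host gate. Macrophages, endothelial cells and T cells held at least 3, 2 and 2 genes of their marker lists and no UMI of H2BMc or Krt8 (lists of 9, 8 and 8 genes), and endothelial cells also none of Ptprc. Of 58645 cells that passed the filters, 16435 were tumour cells, 728 macrophages, 464 endothelial cells and 385 T cells, and 40633 fell in no class. Tumour cells carried 235 to 571 CPM of the keratins Krt8 and Krt18, nearly all of it Krt8, since Krt18 was at 0.132 CPM. Markers that the gates had not used ran at 7127 to 15566 CPM in macrophages (Cd14, Fcer1g, Tyrobp, Lyz2, Itgam), 4313 to 5944 CPM in endothelial cells (Plvap, Cd34, Vwf, Egfl7, Flt1) and 1460 to 2599 CPM in T cells (Thy1, Cd4, Cd8a, Foxp3, Il7r). In tumour cells the same macrophage and T cell lists stood at 14.97 to 26.5 and 0.210 to 1.58 CPM, and the endothelial list at 244 to 379 CPM.

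Libraries differed in ways that move with genotype. The 3 WT libraries held 352 to 917 tumour cells of 13721 to 24081 median UMIs, and the 6 KO libraries 1839 to 3398 of 8632 to 14690. Cells over the mitochondrial limit made up 26.6% to 68.5% of WT barcodes and 12.98% to 29.5% of KO barcodes. Summed tumour-cell UMIs were 9512270 to 14288507 in WT and 24272291 to 47026829 in the KO libraries. Any 2 libraries shared at most 206 barcodes of kept cells. Kmt2d KO library 2 stood apart from the other 2 Kmt2d KO libraries in every class that could be tested, so the member counts and fold changes of Kmt2d KO are also given without it. Its genotype label, like those of the other libraries, could not be checked from transcript counts.

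In tumour cells the 9 GTPases were all higher in Kmt2c KO than in WT, by 2.50 to 4.02 on the log2 scale. Igtp, a regulator of the family, was at 15.8, 14.8 and 24.5 CPM in WT libraries 1 to 3 and at 196, 256 and 353 CPM in Kmt2c KO. Gbp2, a vacuole-binding member of the other family, was at 58.2, 57.5 and 71.2 CPM in WT and 346, 425 and 584 CPM in Kmt2c KO. Every Kmt2c KO library lay above every WT library for all 9 genes, an ordering that 20.9% of the 14010 genes tested also showed.

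Iigp1, a vacuole-coating effector, was at 13.4, 8.40 and 16.4 CPM in WT and at 134, 173 and 261 CPM in Kmt2c KO. Gbp5, the inflammasome-linked member, was at 1.73, 1.33 and 4.52 CPM in WT and 21.5, 35.0 and 62.5 CPM in Kmt2c KO. Irgm1, another regulator, was at 23.2, 24.3 and 25.7 CPM in WT and 105, 132 and 181 CPM in Kmt2c KO. None of these 3 genes had overlapping groups, and Irgm1 had the smallest fold change of the 9. Irgm2 ran from 4.97 to 6.83 CPM in WT and from 54.9 to 109 CPM in Kmt2c KO, and Ifi47 from 13.9 to 17.1 CPM and from 113 to 181 CPM. Gbp3 ran from 9.31 to 17.3 CPM in WT and from 112 to 174 CPM in Kmt2c KO, and Gbp7 from 7.14 to 10.1 CPM and from 78.5 to 120.4 CPM.

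The test was edgeR's quasi-likelihood test on UMI sums per library, with p-values adjusted over all 14010 genes. All 9 of 9 members were called higher in Kmt2c KO (adjusted p = 0.00598 to 0.0222), where 9.71% of all genes were called higher. Gbp5 showed a log2 fold change of 4.02 ± 1.03 (SE), Iigp1 of 3.90 ± 0.90, Igtp of 3.87 ± 0.78, Irgm2 of 3.72 ± 0.71, Gbp7 of 3.38 ± 0.69, Gbp3 of 3.33 ± 0.73, Ifi47 of 3.30 ± 0.61, Gbp2 of 2.85 ± 0.64 and Irgm1 of 2.50 ± 0.53. Their median was 3.38, beside −0.0034 over all genes tested. Leaving out WT library 2 lowered the count called from 9 to 5, with 680 of 14258 genes called higher and with the fold changes of all 9 still above 0. In the same tumour cells the fibroblast genes Pdgfra, Dcn, Col1a1 and Col3a1 summed to 199 to 297 CPM in WT and 101 to 136 CPM in Kmt2c KO, and Krt8 with Krt18 to 550 to 571 CPM and 235 to 339 CPM. Some host lists were higher in Kmt2c KO. The endothelial gate genes summed to 5.49 to 9.73 CPM in WT and 15.1 to 21.4 CPM in Kmt2c KO, the macrophage gate genes to 5.60 to 7.42 CPM and 9.52 to 12.3 CPM, and the macrophage markers outside the gate to 16.2 to 16.9 CPM and 19.9 to 26.5 CPM. T cell markers outside the gate stood at 0.210 to 0.630 CPM and 0.833 to 1.58 CPM and neutrophil genes at 0.105 to 0.420 CPM and 0.654 to 1.18 CPM. The endothelial markers outside the gate, at 269 to 315 CPM in WT and 254 to 277 CPM in Kmt2c KO, overlapped, as did the T cell gate genes and the B, natural killer, dendritic and mural cell lists. The part of these lists in the result was not tested.

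**Figure D2:**
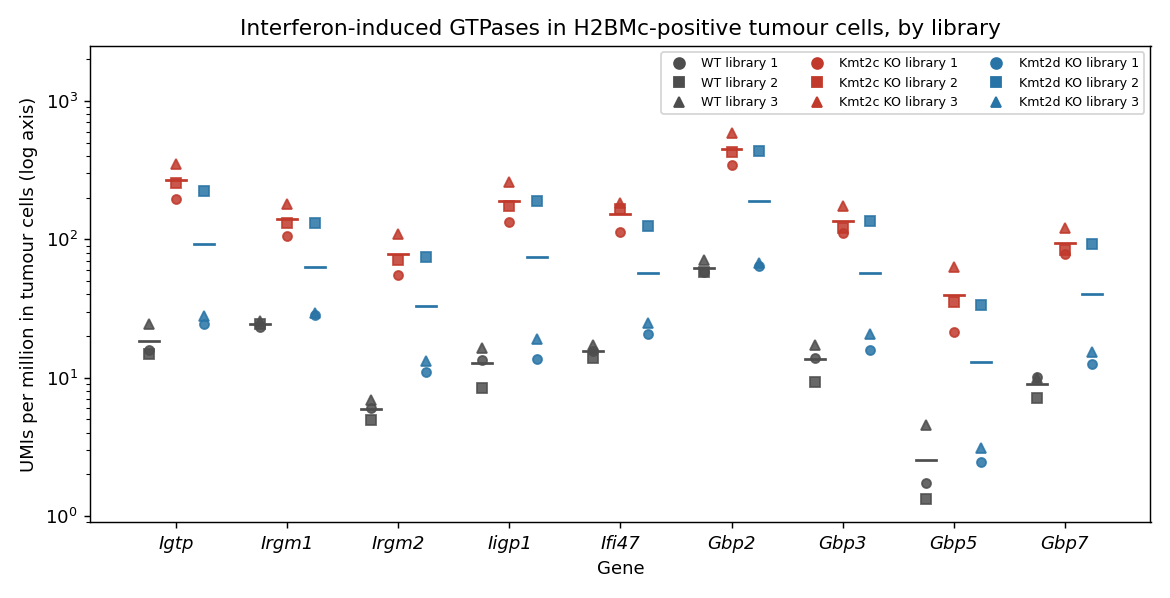
CPM (log axis) of each of the 9 GTPase genes in H2BMc-positive tumour cells, 1 point per library and a bar at each group's mean. For each gene the 3 Kmt2c KO libraries lie above the 3 WT libraries, and Kmt2d KO library 2 (blue square) lies among the Kmt2c KO points while Kmt2d KO libraries 1 and 3 lie near WT.

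The Kmt2d KO tumours did not form one group for these genes. Igtp was at 24.5, 225 and 27.8 CPM in Kmt2d KO libraries 1 to 3, Iigp1 at 13.6, 189 and 19.1 CPM, Gbp2 at 64.2, 432 and 67.9 CPM, and Gbp5 at 2.47, 33.4 and 3.10 CPM. In library 2 all 9 members lay inside the range of the Kmt2c KO libraries, as 46.1% of all genes tested did. In libraries 1 and 3 all 9 lay below every Kmt2c KO library, as 21.7% of genes did. Irgm1, Irgm2, Ifi47 and Gbp7, 4 of the 9, lay above every WT library in both libraries 1 and 3, as 24.4% of genes did. Of these, Irgm1 was at 28.3 and 29.4 CPM beside a WT high of 25.7, and Irgm2 at 11.0 and 13.2 CPM beside a WT high of 6.83.

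With 3 Kmt2d KO libraries that spread so far, the edgeR test called 0 of 9 members against WT, with log2 fold changes of 1.34 to 2.52 (adjusted p = 0.109 to 0.281), where 1.08% of genes were called higher. All 9 had an unadjusted p under 0.05, as had 2401 of 14010 genes, DESeq2 called 1 member, with 329 of 14010 genes called higher, and the fit without a filter on low counts called 6, with 342 of 23380 genes higher. Without library 2 the 9 log2 fold changes lay between 0.06 and 1.03, and Irgm2 alone was called, at 1.03 (adjusted p = 0.0407), where 2.78% of genes were called higher. Kmt2d KO against Kmt2c KO gave 0 of 9 members and 0 of 14010 genes called by edgeR with all libraries. There 4 members and 2480 genes had an unadjusted p under 0.05, and DESeq2 called 0 members and 568 genes. Without library 2, all 9 members were called lower in Kmt2d KO than in Kmt2c KO, at log2 fold changes of −3.81 to −2.28, where 10.4% of genes were called lower. Since library 2 was picked out by its levels of these genes, those calls are not an independent test.

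Single tumour cells showed the same split. After thinning each cell to 2000 UMIs, Igtp was detected in 3.43%, 2.40% and 4.31% of WT tumour cells, in 29.1%, 34.5% and 42.2% of Kmt2c KO cells and in 5.05%, 31.8% and 5.57% of Kmt2d KO cells. Gbp2 was detected in 8.92% to 12.1% of WT cells, 42.7% to 54.4% of Kmt2c KO cells and 11.0%, 44.96% and 11.5% of Kmt2d KO cells. All 9 members were detected in a larger share of cells in every Kmt2c KO library than in every WT library, as were 14.8% of the 10008 genes compared. For Kmt2d KO, 7 of 9 members lay above every WT library, all but Gbp2 and Gbp5, against 9.32% of genes.

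Counted per cell, more of the GTPases were seen in Kmt2c KO than in WT. Such counts rise with each gene's own share of cells, and whether the genes occur together beyond that was not tested. At 2000 UMIs the mean number of the 9 genes seen per tumour cell in WT was 0.304, 0.267 and 0.353, against 1.83, 2.11 and 2.65 among Kmt2c KO cells, with 0.399, 2.09 and 0.447 for the Kmt2d KO libraries. Cells with UMIs of at least 3 members made up 2.52% (95% Clopper-Pearson interval 1.26% to 4.46%), 1.64% (0.920% to 2.69%) and 4.02% (2.22% to 6.66%) of WT tumour cells. They made up 29.8% (28.3% to 31.4%), 36.8% (34.9% to 38.7%) and 47.1% (44.996% to 49.2%) in Kmt2c KO. In Kmt2d KO they made up 3.68% (2.86% to 4.65%), 36.2% (34.1% to 38.4%) and 3.92% (3.20% to 4.76%). The intervals cover counting error only. The WT and Kmt2c KO ranges did not overlap, and at 2000 UMIs Kmt2d KO libraries 1 and 3 fell inside the WT range. At other depths these 2 libraries lay above every WT library. They were at 1.41% and 1.21% at 1000 UMIs, beside 0.654% to 1.14% in WT. At 4000 UMIs they were at 6.19% and 8.37%, beside 3.57% to 5.52% in WT. Some cells with 3 or more of the genes were present in every WT tumour, and 18.5% to 27.6% of cells in the Kmt2c KO libraries showed none of the 9 at 2000 UMIs. The mean share with 3 or more was 2.73% ± 1.21 for WT, 37.9% ± 8.69 for Kmt2c KO and 14.6% ± 18.7 for Kmt2d KO (SD, n = 3 libraries each), the last becoming 3.80% without library 2. Unthinned, the same 3 means were 18.3%, 76.0% and 39.5%.

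**Figure D3:**
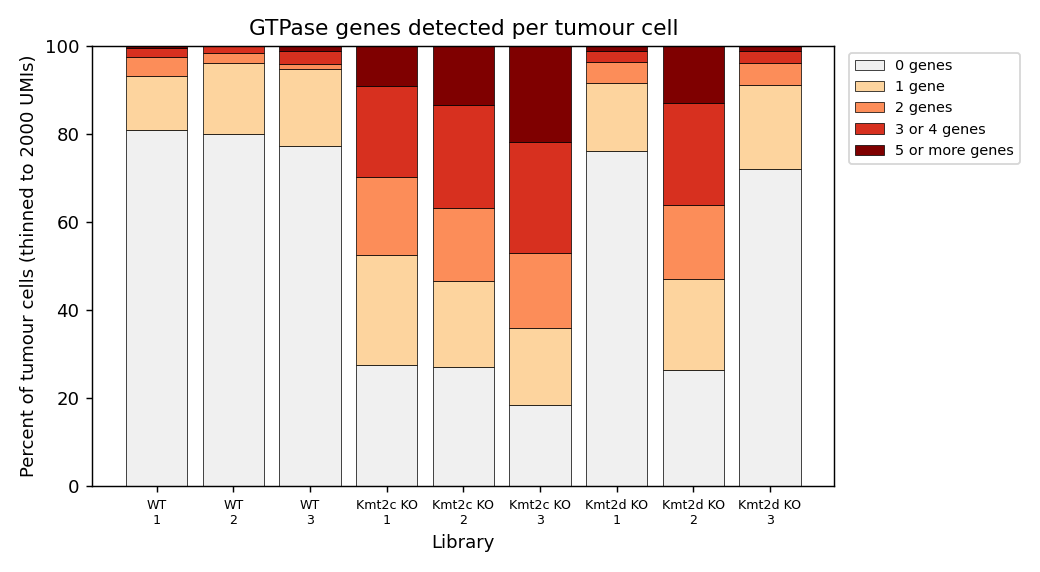
Percent of tumour cells (y axis, bars stacked to 100) by the number of the 9 GTPase genes with a UMI, after thinning to 2000 UMIs, for each library (x axis). The dark segments of 3 or more genes are large in the 3 Kmt2c KO libraries and in Kmt2d KO library 2, and small in the 3 WT libraries and Kmt2d KO libraries 1 and 3.

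Macrophages of the same tumours showed the pattern of the tumour cells around them, although their own genome is WT. Gbp2 was at 47.7, 57.8 and 88.3 CPM in macrophages of WT tumours, 420.3, 347 and 364 CPM in those of Kmt2c KO tumours and 65.1, 391 and 76.4 CPM in those of Kmt2d KO tumours. Iigp1 was at 13.6, 28.9 and 61.4 CPM, then 262, 271 and 283 CPM, then 65.1, 313 and 127 CPM. Igtp was at 34.0, 0 and 34.5 CPM, then 158, 149 and 179 CPM, then 13.9, 147 and 17.0 CPM, where 0 UMIs in WT library 2 allow up to 21.7 CPM. For all 9 genes the 3 Kmt2c KO libraries lay above the 3 WT libraries, as for 13.2% of the 4529 genes tested, and Kmt2d KO libraries 1 and 3 lay below the Kmt2c KO libraries, as for 15.8%. The share of macrophages with a UMI, at 1000 UMIs per cell, separated Kmt2c KO from WT for 7 of 9 members, all but Irgm1 and Ifi47, against 8.30% of genes. These are small samples of 30 to 68 macrophages per WT library, 65 to 185 per Kmt2c KO library and 33 to 73 per Kmt2d KO library.

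In macrophages edgeR called 8 of 9 members higher in Kmt2c KO, where 5.74% of genes were called higher. Igtp, Irgm2, Gbp3 and Gbp5 lay under the level of the low-count filter in every WT library and passed it only through KO libraries. Had they not been high there, they would not have been tested, so their calls are not independent of the filter. Iigp1 had a log2 fold change of 2.83 ± 0.49 (adjusted p = 0.00127), Igtp of 2.71 ± 0.61 and Gbp2 of 2.50 ± 0.49, down to 1.24 ± 0.33 for Gbp7. Irgm1, at 57.8 to 69.1 CPM in WT and 139.8 to 158 CPM in Kmt2c KO, had 1.23 ± 0.40 and was not called (adjusted p = 0.0669). The median over the 9 was 1.97, beside −0.0027 over all genes tested. Leaving out Kmt2c KO library 3 lowered the count to 4, with 155 of 4191 genes called higher, and without Kmt2d KO library 2 it was 9, where 7.27% of genes were called higher. That count of 9 is not an independent test, since library 2 was picked out by its levels of these genes. Dendritic cell genes summed to 166 to 408 CPM in this gate in WT and 6.89 to 138 CPM in Kmt2c KO. The fibroblast genes summed to 0 to 6.81 CPM there in WT and 41.7 to 48.2 CPM in Kmt2c KO, and the endothelial markers that the gates had not used to 6.81 to 43.4 CPM and 62.0 to 81.5 CPM. The macrophage markers that the gate had not used stood at 12823 to 15566 CPM in WT and 9113 to 10115 CPM in Kmt2c KO, while the macrophage gate genes overlapped, at 9476 to 14034 CPM and 11284 to 14725 CPM, as did the endothelial gate genes and the T, B, natural killer, mural and neutrophil lists. The part of these lists in the result was not tested.

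For macrophages of Kmt2d KO tumours, 0 of 9 members were called against WT by edgeR, with Iigp1 nearest at 2.19 ± 0.52 (adjusted p = 0.0544). By edgeR 0.729% of genes were called higher there, and 3 members and 382 of 4529 genes had an unadjusted p under 0.05. DESeq2 called 1 member, with 38 of 4529 genes called higher, and without Kmt2d KO library 1 edgeR called 3, with 59 of 4274 genes called higher. Against Kmt2c KO 0 of 9 were called by edgeR and by DESeq2, 6 members and 574 of 4529 genes had an unadjusted p under 0.05, and 0.132% of genes were called lower by edgeR. DESeq2 gave no adjusted p for Gbp3, Gbp5, Igtp and Irgm2 in that comparison. Without library 2 the 9 log2 fold changes against WT lay between −0.99 and 1.21, with a median of −0.056 and 0 called. Gbp5 and Iigp1 were both at 1.21, and in libraries 1 and 3 both genes lay above every WT library. Also without library 2, 8 of 9 members were called lower than in Kmt2c KO, where 3.24% of genes were. Since library 2 was picked out by its levels of these genes, those calls are not an independent test. Library 2 alone thus set the direction against WT for Gbp7, Ifi47, Igtp, Irgm1 and Irgm2, whose log2 fold changes turned to −0.28, −0.056, −0.71, −0.085 and −0.99 without it.

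Endothelial cells, which line the tumour vessels, were the other host class that could be tested against WT. Iigp1 was at 175, 189 and 477 CPM in endothelial cells of WT tumours, 924, 764 and 898 CPM in Kmt2c KO and 247, 1043 and 403 CPM in Kmt2d KO. Igtp was at 12.9, 38.9 and 72.1 CPM, then 329, 373 and 306 CPM, then 48.7, 345 and 97.3 CPM. Gbp5 was at 33.5, 26.7 and 80.1 CPM, then 227, 238 and 296 CPM, then 27.9, 452 and 71.2 CPM. All 9 members were higher in each Kmt2c KO library than in each WT library, as were 11.8% of 5474 genes tested, and lower in Kmt2d KO libraries 1 and 3 than in each Kmt2c KO library, as were 13.8%. At 1000 UMIs per cell, Iigp1 was detected in 18.4%, 14.3% and 27.5% of endothelial cells from WT tumours, 55.6%, 50.0% and 56.2% of those from Kmt2c KO and 22.2%, 51.1% and 31.7% of those from Kmt2d KO. Such shares separated Kmt2c KO from WT for 9 of 9 members, against 7.03% of genes. WT library 3 was the highest of the 3 WT libraries for all 9 genes and Kmt2d KO library 2 lay above every Kmt2c KO library for 5 of them.

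In endothelial cells edgeR called 4 of 9 members higher in Kmt2c KO, where 3.43% of genes were called higher. These were Igtp at 2.99 ± 0.57 (adjusted p = 0.00812), Irgm2 at 2.89 ± 0.68 (0.0241), Irgm1 at 1.83 ± 0.43 (0.0251) and Gbp3 at 1.64 ± 0.40 (0.0318). The other 5 had log2 fold changes of 1.25 for Ifi47 to 2.41 for Gbp5 and adjusted p of 0.0522 to 0.167, and all 9 members and 1068 of 5474 genes had an unadjusted p under 0.05. Irgm2 lay under the level of the low-count filter in every WT library and passed it only through KO libraries where it was high. Its call is thus not independent of the filter. The median of the 9 was 1.83, beside −0.0025 over all genes tested. In this gate the 8 genes that define it summed to 5276 to 6145 CPM in WT and 3910 to 4487 CPM in Kmt2c KO, and the unused macrophage markers to 24.3 to 51.6 CPM and 54.3 to 58.1 CPM. The endothelial markers outside the gate overlapped, at 5424 to 5944 CPM and 5208 to 5553 CPM, as did the macrophage gate genes and the fibroblast, mural and other host lists. Their part in the result was not tested. The count of 4 moved with the settings. It was 9 without Kmt2d KO library 2, where 5.54% of genes were called higher, 9 with only the WT and Kmt2c KO libraries in the fit and 9 without the filter on low counts, 7 with an additional marker required for the gate, 8 without Kmt2d KO library 1 and 7 without Kmt2d KO library 3. Over these last 5 settings 199 to 374 of 5359 to 15679 genes were called higher. It was 0 without WT library 2, 1 without WT library 1, 3 without WT library 3 and 1, 2 and 1 without Kmt2c KO libraries 1, 2 and 3, and over these 6 settings 83 to 180 of 5761 to 6444 genes were called in either direction. Kmt2d KO library 2 was picked out by its levels of these genes, so the count without it is not an independent test.

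In endothelial cells of Kmt2d KO tumours 0 of 9 members were called against WT by edgeR, at log2 fold changes of 0.68 to 2.13, where 0.0365% of genes were called higher. There 5 members and 500 of 5474 genes had an unadjusted p under 0.05, DESeq2 called 0 members and 11 genes, and without Kmt2d KO library 1 edgeR called 1 member, with 53 of 6392 genes called higher. Against Kmt2c KO 0 of 9 members and 0 of 5474 genes were called by edgeR, while 2 members and 493 genes had an unadjusted p under 0.05 and DESeq2 called 0 members and 10 genes. Without library 2 all 9 were called lower than in Kmt2c KO, with log2 fold changes of −2.41 to −1.29, where 2.49% of genes were called lower. As in the other classes, library 2 was picked out by its levels of these genes, so those calls are not an independent test. Against WT the 9 then had log2 fold changes of −0.36 to 0.93, with 0 called.

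**Figure D4:**
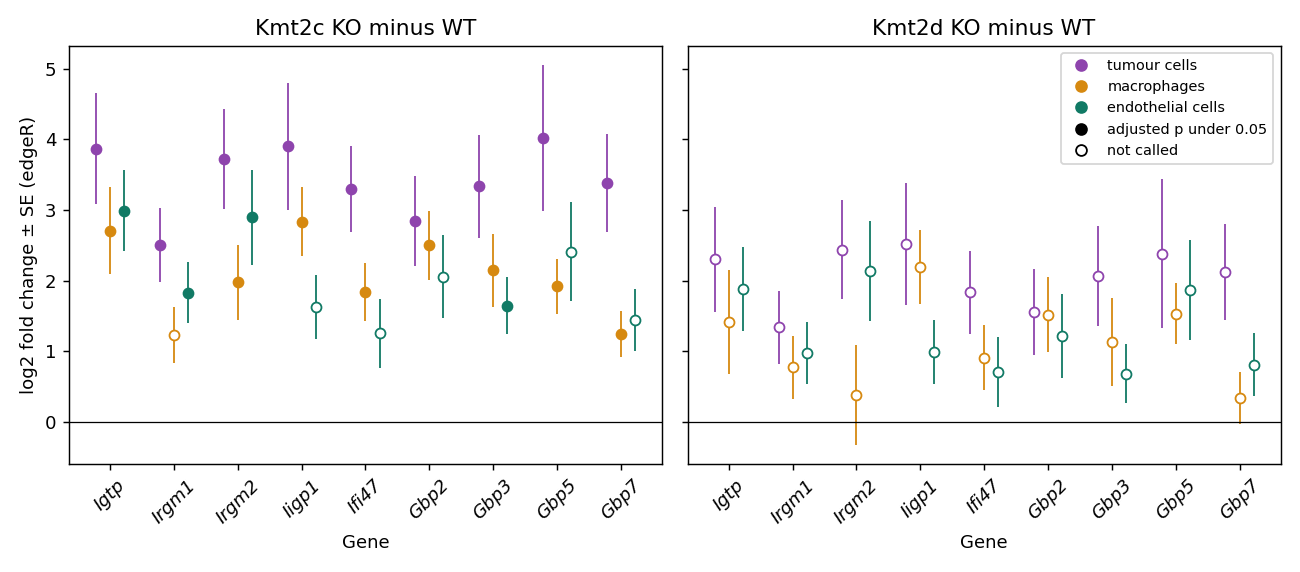
log2 fold changes ± SE from edgeR for the 9 GTPase genes in tumour cells, macrophages and endothelial cells, Kmt2c KO against WT (left) and Kmt2d KO against WT (right), with filled points where the adjusted p was under 0.05. In Kmt2c KO every point is above 0, and for each gene the tumour-cell point is the highest of the 3, while in Kmt2d KO no point is filled.

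For part of the members the fold change of Kmt2c KO over WT was called smaller in host cells than in tumour cells, tested as the interaction of class and genotype with library as a term. In endothelial cells all 9 differences from tumour cells were below 0. There 6 of 9 members were called smaller, where 1.50% of 13090 genes were. The called differences were −2.22 ± 0.27 for Iigp1, −2.04 ± 0.28 for Ifi47, −1.95 ± 0.29 for Gbp7, −1.75 ± 0.29 for Gbp3, −1.50 ± 0.35 for Gbp5 and −0.82 ± 0.21 for Gbp2 (adjusted p = 2.04e-09 to 0.0143). For Igtp, Irgm1 and Irgm2 the differences were −0.85, −0.72 and −0.82 and were not called (adjusted p = 0.152 to 0.549). The endothelial count of 6 was 4 with DESeq2 and ran from 4 to 8 with 1 library left out. In macrophages 4 of 9 members were called smaller, Gbp7, Gbp5, Ifi47 and Irgm1, at −2.18 to −1.36 (adjusted p = 2.32e-08 to 0.0111), where 2.18% of 12826 genes were. That count was 2 without Kmt2c KO library 3 and 2 without WT library 3, and DESeq2 called 1. For both classes, counts over all genes are not given under these other settings, so the changes are not a result about the members. For Kmt2d KO, 1 of 9 was called smaller in macrophages, Gbp7 at −1.69 ± 0.37, where 0.530% of genes were, and 1 in endothelial cells, Gbp3 at −1.17 ± 0.30, where 0.351% were, and neither was called without Kmt2d KO library 2.

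The host cells started from a higher level. In WT tumours the 9 genes summed to 158, 142 and 194 CPM in tumour cells, 354, 347 and 480 CPM in macrophages and 534, 661 and 1320 CPM in endothelial cells. In Kmt2c KO tumours the sums were 1160, 1460 and 2026 CPM, 1750, 1507 and 1676 CPM, and 2845, 2946 and 3277 CPM in the same order of classes. The tumour-cell range then overlapped that of macrophages, and the endothelial range stayed above both. In Kmt2d KO library 2 the sums were 1439 CPM in tumour cells, 1619 CPM in macrophages and 3822 CPM in endothelial cells, and in libraries 1 and 3 they were 193 and 221, 404 and 543, and 689 and 1113 CPM.

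Gene by gene, endothelial cells had the highest mean of these 3 classes for 8 of 9 members in WT, all but Irgm2, and for 9 of 9 in both KO groups. For 4 of these means, leaving out 1 library put macrophages highest. Gbp5 in Kmt2d KO rested on library 2, since libraries 1 and 3 were at 55.8 and 84.8 CPM in macrophages and 27.9 and 71.2 CPM in endothelial cells. Gbp7 in WT rested on library 3, with libraries 1 and 2 at 102 and 65.1 CPM in macrophages and 77.3 and 72.9 CPM in endothelial cells. Irgm1 in WT changed without library 2 or library 3, at 61.3, 57.8 and 69.1 CPM in macrophages and 41.3, 77.7 and 82.1 CPM in endothelial cells, and Irgm2 in Kmt2c KO without library 3, at 82.7, 65.5 and 72.5 CPM and 77.4, 62.1 and 123 CPM. Only in Kmt2c KO, and only for Iigp1, Gbp5 and Gbp7, did the 3 classes follow each other with no overlap between libraries, in the order endothelial cells, macrophages, tumour cells. For Iigp1 the Kmt2c KO ranges were 764 to 924 CPM, 262 to 283 CPM and 134 to 261 CPM. In WT the endothelial and macrophage ranges overlapped for Igtp, Irgm1, Irgm2, Ifi47, Gbp5 and Gbp7. All these are shares of each class's own UMIs, so a level in one class depends on what else that class expresses. How often other genes show such class orders was not counted, so the orders are not shown to be particular to these genes.

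Free RNA from tumour cells could add to the host cells' counts, and its size can be gauged from genes of the tumour cells. Of 253 genes at 500 CPM or more in tumour cells and outside the marker lists, the one with the lowest level in macrophages relative to tumour cells was Odc1, at 8.71%, and in endothelial cells it was S100a4, at 5.37%. Both ratios are pooled over the libraries. If all of that came from tumour cells, free RNA at the pooled ratio would have given up to 10.5% of the summed GTPase counts of a Kmt2c KO library in macrophages and 3.32% in endothelial cells, and the ratio in a single library could be higher. For a single member, such as Igtp in macrophages, the share could be higher than for the sum. These 2 genes, Odc1 and S100a4, were chosen after their values were seen. The part of free RNA in the host cell results was not tested.

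**Figure D5:**
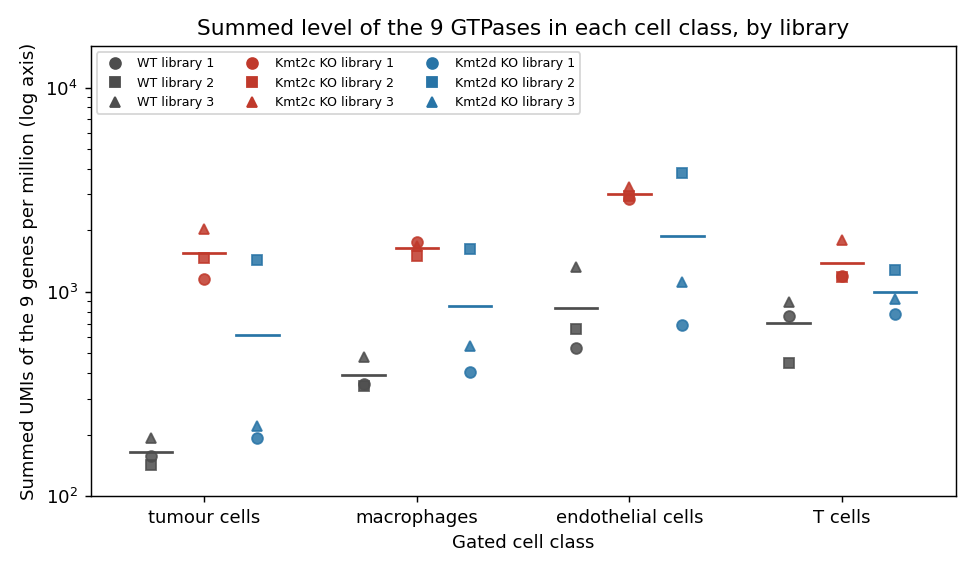
Summed CPM of the 9 GTPase genes (log axis) in each gated cell class, 1 point per library and a bar at each group's mean. In each class the Kmt2c KO libraries and Kmt2d KO library 2 lie above the other libraries, and in T cells the groups lie closer together.

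T cells were too few for a test against WT. The WT libraries held 12, 16 and 15 of them, Kmt2c KO 8, 191 and 61, and Kmt2d KO 50, 11 and 21, and libraries under 20 cells were left out of fits. The summed level of the 9 genes was 767, 450 and 892 CPM in WT, 1200, 1187 and 1793 CPM in Kmt2c KO and 779, 1284 and 928 CPM in Kmt2d KO. The Kmt2c KO libraries and Kmt2d KO library 2 thus lay above every other library. Kmt2c KO library 1 and Kmt2d KO library 2 held only 12 and 23 UMIs of the 9 genes. Gbp7 had 5, 2 and 7 UMIs in WT, or 295, 81.8 and 249.7 CPM, whose exact 95% Poisson intervals of 95.7 to 688, 9.90 to 295 and 100.4 to 515 CPM cover counting error only. In Kmt2c KO Gbp7 was at 299.9, 238 and 389 CPM and in Kmt2d KO at 263, 335 and 348 CPM, so the 3 groups overlapped. Igtp was at 118, 123 and 71.3 CPM in WT, 400, 189.7 and 212 CPM in Kmt2c KO and 98.8, 279 and 145 CPM in Kmt2d KO. Igtp and Iigp1 were the 2 of 9 members with every Kmt2c KO library above every WT library, an ordering of 6.96% of the 1840 genes tested, but Kmt2c KO library 1, of 8 T cells, held only 4 and 2 UMIs of them. Those 1840 genes passed a count filter on KO libraries only and include 5 of the 9 members. The 6.96% is thus not a like background for 2 of 9.

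The T cell test that could be run set Kmt2d KO libraries 1 and 3 against Kmt2c KO libraries 2 and 3. Of 5 members that passed the count filter, edgeR called 0, and 1.25% of 1840 genes were called. Igtp, at −0.82 ± 0.54, Iigp1 at −1.37 ± 0.58, Ifi47 at −1.37 ± 0.57, Gbp3 at 0.01 ± 0.67 and Gbp7 at −0.06 ± 0.47 had adjusted p of 0.449 to 0.997. Among them, 2 had an unadjusted p under 0.05, as had 125 of 1840 genes, and DESeq2 called 0 members and 3 genes. Free RNA from tumour cells, gauged by the pooled ratio as in the other host classes, would have given up to 2.19% of the summed GTPase counts in T cells of a Kmt2c KO library.

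Ifng, the gene for interferon gamma itself, was sparse. Kept cells held 1, 3 and 4 Ifng UMIs in WT libraries 1 to 3, 2, 154 and 10 in Kmt2c KO and 3, 7 and 9 in Kmt2d KO, and 147 of the 154 were in 13 T cells. Gated tumour cells held 1, 3 and 1 of these UMIs in WT, and T cells 0, 0 and 3. In Kmt2c KO tumour cells held 0, 1 and 2 and T cells 0, 147 and 5. For Kmt2d KO these were 0, 0 and 3 in tumour cells and 1, 7 and 1 in T cells. How many of these UMIs are background was not tested. Cells with an Ifng UMI were 8.44 per 10000 kept cells (95% Clopper-Pearson interval 0.214 to 46.9), 12.6 (2.60 to 36.8) and 21.3 (2.58 to 76.7) in WT. In Kmt2c KO they were 1.69 (0.205 to 6.11), 20.6 (12.2 to 32.5) and 14.9 (6.83 to 28.3), and in Kmt2d KO 5.0025 (1.03 to 14.6), 1.42 (0.0360 to 7.91) and 4.82 (1.94 to 9.93). Kmt2c KO library 1 and Kmt2d KO library 2, both with high GTPases, held 2 and 1 such cells and had the lowest shares. Each Kmt2d KO library lay below each WT library, and the Kmt2c KO range overlapped that of WT. The WT values rest on 1 to 3 such cells per library, and the interval of each WT library overlapped that of each Kmt2d KO library. These intervals cover counting error over cells only, and the groups were not tested against each other. Gated T cells made up 0.677, 21.8 and 10.1 of 1000 kept cells in Kmt2c KO, 8.34, 1.56 and 1.45 in Kmt2d KO and 10.1, 6.72 and 15.97 in WT. With so few cells holding Ifng, the parts of T cell number and of Ifng RNA per T cell in these values were not tested.

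The rest of the pathway was read from lists of genes, whose counts stand beside 9.71% of all genes called higher in Kmt2c KO in tumour cells, 5.74% in macrophages and 3.43% in endothelial cells. Of 10 other interferon-inducible GTPases that could be tested in tumour cells, all 10 were called higher in Kmt2c KO, with a median log2 fold change of 3.56, among them Tgtp2 at 3.80 ± 0.85 and Gbp10 at 3.91 ± 0.92. In macrophages 5 of 6 were called higher (Gbp2b, Gbp4, Gbp6, Gbp8 and Gm4951) and in endothelial cells 4 of 9 (Gbp2b, Gbp9, Gm4951 and F830016B08Rik). Of 6 receptor and signalling genes, 2 were called higher in all 3 classes, the transcription factor Irf1 and the feedback inhibitor Socs1, while the receptor subunit Ifngr2 and the kinases Jak1 and Jak2 were not called in any. Irf1 had log2 fold changes of 1.78 ± 0.24 in tumour cells, 1.67 ± 0.32 in macrophages and 1.86 ± 0.31 in endothelial cells, and Socs1 of 1.18 ± 0.18, 2.50 ± 0.43 and 3.90 ± 0.53. The other receptor subunit, Ifngr1, was called lower in macrophages, at −0.98 ± 0.25 (adjusted p = 0.0173), and was not called in tumour cells, at −0.31 ± 0.14, or in endothelial cells, at −0.81 ± 0.27.

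Targets outside the GTPases include chemokines, the immunoproteasome and antigen presentation. In tumour cells 12 of 14 targets of interferon gamma were called higher in Kmt2c KO, the exceptions being Irf8 and Wars, with a median log2 fold change of 2.64. In endothelial cells 12 of 14 were called higher, the exceptions being Cxcl10 and Psmb8. In macrophages 7 of 13 were, and the antigen-presentation genes Cd74, H2-Ab1 and Ciita were not, at −0.37 ± 0.20, −0.08 ± 0.18 and −0.65 ± 0.39. In the interaction test 10 of 14 targets were called smaller in macrophages than in tumour cells, where 2.18% of genes were. They were these 3 with Cd274, Cxcl9, Cxcl10, Psmb8, Psmb9, Psmb10 and Tap1. Dendritic cells express antigen-presentation genes strongly. Genes of dendritic cells stood at 166 to 408 CPM in the macrophage gate in WT and 6.89 to 138 CPM in Kmt2c KO. The part of dendritic cells in both results was not tested. Of genes linked mainly to type I interferon, 12 of 14 were called higher in tumour cells, 10 of 15 in macrophages and 7 of 15 in endothelial cells, beside the same 9.71%, 5.74% and 3.43% of all genes. For Kmt2d KO against WT, 0 of the 10 other GTPases and 0 of 14 targets were called in tumour cells by edgeR with all 3 libraries, and 2 of 14 type I genes, Bst2 and Rtp4, were, where 1.08% of all genes were called higher.

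Outside these lists, the 5 genes of 6621 with a mean of at least 20 CPM whose tumour-cell pattern over the 9 libraries was most like the members' mean were Parp14, Ddx58, Ifi44, Tap2 and Samhd1 (Pearson r = 0.998 to 0.996 of log2 values). Parp14 was at 7.21 to 9.67 CPM in WT, 49.0 to 74.5 CPM in Kmt2c KO and 11.7, 56.6 and 13.3 CPM in Kmt2d KO. The 9 libraries fall into 4 with high and 5 with low values, so each r describes that gap.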

How the data were processed

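The authors aligned and counted the 5′ libraries with Cell Ranger 7.0.1 (build mm10 per the labels) and deposited 1 aggregated matrix of UMI counts, unnormalized whole numbers per gene and cell barcode. The sources used here do not say whether aggregation thinned reads to a common depth. Barcode suffixes gave the library. Cells with over 500 and under 7500 genes and under 15% mitochondrial counts were kept, as in the study's methods. Cells meeting 2 gates (6) were left out, and no doublet caller was run. The gates, members and gene lists were chosen with earlier results of these data known.

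UMIs were summed per library and class and tested with edgeR 4.0.16 (quasi-likelihood, TMM, filterByExpr, all libraries of at least 20 cells in 1 fit, Benjamini-Hochberg over all genes), with DESeq2 1.42.0 as an alternative. Levels are CPM of a class's UMIs. For shares, cells were thinned to 2000 UMIs (tumour) or 1000 (host classes), and shallower cells were left out. Text names all 9 members, the lists, and the 5 genes most like the members. The labels say that libraries are separate samples of a genotype, and p-values measure the spread between them. The study's methods describe no separately edited populations of the same knockout. The p-values thus do not measure spread between edited populations, and genotype cannot be told apart from the history of such a population. Gbp11, Gm12250, Mx1 and Mx2 were not used here, and 1 gene of the signalling list is not reported here. Other settings tried were RLE scaling, no count filter, only the 2 groups compared, other gates, a 10% mitochondrial limit, other thinning depths and leaving out each library.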

Additional observations from a re-analysis of the deposited data

Results flagged for a closer look

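Of 36 tests of whether a member's response differed between host cells and tumour cells, 12 passed an adjusted p of 0.05, all with a smaller response in the host class. Over all genes, 1.50% were called smaller in endothelial cells and 2.18% in macrophages for Kmt2c KO against WT. For Kmt2d KO against WT these shares were 0.351% and 0.530%. For Kmt2c KO against WT in endothelial cells, the log2 fold change differed from that in tumour cells by −2.22 for Iigp1, −2.04 for Ifi47, −1.95 for Gbp7, −1.75 for Gbp3, −1.50 for Gbp5 and −0.82 for Gbp2. For macrophages the differences were −2.18 for Gbp7, −1.97 for Gbp5, −1.52 for Ifi47 and −1.36 for Irgm1. For Kmt2d KO against WT they were −1.69 for Gbp7 in macrophages and −1.17 for Gbp3 in endothelial cells, and 0 of 9 members were called in either class by edgeR without Kmt2d KO library 2.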

How the results depend on the processing

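For Kmt2c KO against WT, 414 of 414 member fold changes over tumour cells, macrophages and endothelial cells and all settings stayed above 0. These are refits of the same libraries, not separate tests. In each of these classes every Kmt2c KO library lay above every WT library for all 9 members, so signs could hardly turn. The counts of members called under other settings follow. Counts over all genes are not given beside them, so a changed count is not by itself a result about the members.
With DESeq2, Kmt2c KO against WT gave 6 in macrophages and 5 in endothelial cells, and its endothelial difference 4. Kmt2d KO against WT gave 1 in tumour cells and 1 in macrophages, and the class differences gave 1 for macrophages in Kmt2c KO and 0 in Kmt2d KO, and 0 for endothelial cells in Kmt2d KO.
Without the low-count filter, Kmt2d KO against WT gave 6 in tumour cells, 3 in macrophages and 5 in endothelial cells, Kmt2d KO against Kmt2c KO gave 1, 3 and 3, endothelial cells of Kmt2c KO against WT gave 9, and the endothelial difference in Kmt2d KO gave 3.
With only the 2 groups compared, endothelial cells of Kmt2c KO against WT gave 9, and the endothelial difference in Kmt2d KO gave 0, as it did with RLE scaling and with at least 2 UMIs of the reporter.
With 1 more marker in the gate, endothelial cells of Kmt2c KO gave 7 and the macrophage differences 2 in Kmt2c KO and 0 in Kmt2d KO. The cause was not tested.

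Leaving out 1 library at a time gave 5 to 9 members in tumour cells for Kmt2c KO against WT, 0 to 1 for Kmt2d KO against WT and 0 to 9 for Kmt2d KO against Kmt2c KO. The same counts were 4 to 9, 0 to 3 and 0 to 8 in macrophages and 0 to 9, 0 to 1 and 0 to 9 in endothelial cells. The differences gave 2 to 4 and 0 to 1 for macrophages and 4 to 8 and 0 to 4 for endothelial cells, in Kmt2c KO and Kmt2d KO. Counts over all genes are not given beside these ranges, so the ranges are not by themselves a result about the members. The ranges include the fit without Kmt2d KO library 2, which was picked out by its levels of these genes. Without Kmt2d KO library 1, 3 macrophage members were called for Kmt2d KO against WT.

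The mean share of tumour cells with 3 or more members was 0.824%, 4.81% and 18.3% in WT and 18.9%, 57.6% and 76.0% in Kmt2c KO at 1000 UMIs, 4000 UMIs and unthinned, and 39.5% in Kmt2d KO unthinned. It ran over 2.08% to 3.27%, 33.3% to 41.9% and 3.80% to 20.1% when 1 library of the group was left out.

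Fold changes that turned sign had not been called. In T cells Gbp3 was at −0.061 without the low-count filter. For Kmt2d KO, the macrophage difference was 0.057 for Gbp2 and 0.029 for Iigp1 with tumour cells gated on the reporter or Krt8, 0.12 for Gbp2 with 1 more marker, 0.21 for Gbp5 and 0.42 for Iigp1 with DESeq2, and for Iigp1 0.042 with only the 2 groups and 0.13 at the 10% mitochondrial limit. The endothelial difference of Igtp was 0.073 with DESeq2. With 1 library left out, macrophage fold changes of Kmt2d KO over WT ran from −0.28 to 0.56 for Gbp7, −0.056 to 1.20 for Ifi47, −0.71 to 1.96 for Igtp, −0.085 to 1.26 for Irgm1 and −0.99 to 0.73 for Irgm2, and over Kmt2c KO from −1.31 to 0.044 for Irgm1. Endothelial ones over WT ran from −0.36 to 1.74 for Gbp2, −0.22 to 1.07 for Gbp3 and −0.16 to 1.37 for Ifi47. The differences in Kmt2d KO ran from −0.22 to 0.16 for Gbp2, −0.97 to 1.28 for Gbp5 and −0.41 to 0.97 for Iigp1 in macrophages, and from −0.51 to 0.33 for Igtp and −0.43 to 0.58 for Irgm2 in endothelial cells.

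No paired analysis was possible because the columns carry no replicate numbers. Leaving out libraries in the T cell test was not run, since a group would keep 1 library. Depth limits the host classes, where 3 UMIs in a library correspond to 5.44 to 25.5 CPM in macrophages and 6.01 to 14.8 CPM in endothelial cells, and up to 299.9 CPM in T cells.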
